A study of Mus musculus with 24 samples.

Results

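The genes described here are the RNase H enzymes, the nuclear proteins known to bind phosphorothioate antisense oligonucleotides (ASOs) and the paraspeckle RNA: Rnaseh1, Rnaseh2a, Rnaseh2b, Rnaseh2c, Nono, Sfpq, Pspc1, Ssb and Neat1. They were taken by symbol from the gene table, as 9 of its 39253 genes, and all 9 passed the filter on low counts (0.5 CPM, where CPM are counts scaled to a fixed library total, in 3 or more samples), which left 13901 genes to test. RNA-seq was done on 24 samples of Neuro2A, a mouse neuroblastoma cell line of wild-type genotype, in 8 groups of 3 independent replicates. In 6 groups the cells were transiently transfected with plasmids for a CRISPR effector that cuts RNA, namely RfxCas13d, HiFi-RfxCas13d (a high-fidelity variant) or DiCas7-11, each with a crRNA against mouse ataxin-2 mRNA (mATXN2) or a non-targeting crRNA (NTG), and were harvested after 48 hr. The remaining groups were untransfected cells and cells given an ataxin-2-targeting ASO as the positive control. The dose, chemistry, sequence and delivery of the ASO are not given in the sources used here, and its group has no cells given a control oligonucleotide, so that the ASO's target, its chemistry and the handling of the cells cannot be told apart. All samples came from 1 line in 1 medium, and the share of cells that took up plasmid or ASO is not stated. The labels of every sample carry the same text on transfection and on the 48 hr of culture, the untransfected and ASO samples included.

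RNase H enzymes cut the RNA strand of an RNA-DNA hybrid. RNase H1 is the enzyme through which gapmer ASOs have their target RNA cut, and RNase H2 is a complex of a catalytic subunit, encoded by Rnaseh2a, and the accessory subunits of Rnaseh2b and Rnaseh2c, which also takes single ribonucleotides out of DNA. Nono, Sfpq and Pspc1 form the DBHS family (Drosophila behavior, human splicing) of RNA-binding proteins, which gather with the long noncoding RNA Neat1 in nuclear bodies called paraspeckles, and which, like the La protein encoded by Ssb, bind oligonucleotides with a phosphorothioate backbone in cells.

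The promoters of the DBHS genes are shown because these 3 genes were the members called lower in ASO cells than in the transfected groups. Each runs from 250 bases before to 50 bases after the start of the gene, 5′ to 3′ on the strand of the gene, from RefSeq on GRCm38.p6, a build other than the one used by the authors: chr4:127021051-127021350 on the plus strand for Sfpq, chrX:101429401-101429700 on the plus strand for Nono and chr14:56778269-56778568 on the minus strand for Pspc1. Capitals mark the letters CCAAT, searched on both strands (ATTGG is the reverse strand), and GGGCGG, also searched on both strands.
Sfpq: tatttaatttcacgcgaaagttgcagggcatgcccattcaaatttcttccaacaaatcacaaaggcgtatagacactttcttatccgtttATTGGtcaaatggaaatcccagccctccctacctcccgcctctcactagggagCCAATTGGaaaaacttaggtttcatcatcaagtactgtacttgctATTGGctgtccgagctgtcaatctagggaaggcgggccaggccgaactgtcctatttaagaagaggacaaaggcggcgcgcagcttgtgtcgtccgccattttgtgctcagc
Nono: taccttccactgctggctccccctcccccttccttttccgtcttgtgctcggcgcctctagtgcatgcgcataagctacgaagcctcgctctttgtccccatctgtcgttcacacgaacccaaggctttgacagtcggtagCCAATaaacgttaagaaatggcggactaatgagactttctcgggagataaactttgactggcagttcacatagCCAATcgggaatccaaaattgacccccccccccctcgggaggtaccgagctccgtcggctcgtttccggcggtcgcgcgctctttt
Pspc1: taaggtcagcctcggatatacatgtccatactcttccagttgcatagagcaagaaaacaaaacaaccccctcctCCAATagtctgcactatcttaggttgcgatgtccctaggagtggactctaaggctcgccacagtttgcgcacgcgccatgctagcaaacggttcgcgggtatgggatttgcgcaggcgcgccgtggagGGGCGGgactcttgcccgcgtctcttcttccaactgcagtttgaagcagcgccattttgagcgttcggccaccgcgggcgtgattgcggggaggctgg
The Sfpq promoter held 4 matches to CCAAT, of which 2 share bases as CCAATTGG, the Nono promoter held 2, and the Pspc1 promoter held 1 together with 1 match to GGGCGG. Of all 32544 promoters of this length, 37.4% held CCAAT and 35.9% held GGGCGG. No TATAAA lay in any of the 3, against 13.6% of all promoters. Promoters of Ssb, Rnaseh2a and Rnaseh2c were also in the table, so 6 of the 9 genes were matched. Ssb had 2 matches to GGGCGG, Rnaseh2a had 1 to CCAAT and 2 to GGGCGG, and Rnaseh2c had none of these letters in its window.

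Library totals were between 12665725 and 22504999 expected counts, and the 3 ASO libraries were the deepest, at 21874644 to 22504999 against at most 19857305 in the other 21. The variance between pairs of replicates was 1.67 to 2.62 times that of counting noise in 7 groups. It was 3.46 to 5.84 times that in the NTG group of DiCas7-11. Of 12 neuroblastoma and sympathetic neuron markers, 10 were expressed, Hand2 and Gata2 among them at over 100 CPM, whereas Nefl and Nefm stayed under 1 CPM. Their summed level was 1470 to 1530 CPM in ASO, 1550 to 1580 in untransfected and 1490 to 1580 in transfected samples, although 8 of the 10 were called between ASO and untransfected cells, 4 higher and 4 lower, beside 42.7% of all genes tested. All 3 astrocyte and all 4 immune markers were under 1 CPM, with Aqp4 at 0 in every sample, as were all 4 epithelial markers, with Epcam and Krt18 at 0. Among oligodendrocyte markers Mog was under 1 CPM, and the sum over 3 markers was 14.7 to 17.8 CPM in ASO, 15.6 to 18.9 in untransfected and 13.9 to 17.9 in transfected samples. Fibroblast markers summed to 5.31 to 6.05 CPM in ASO, 8.10 to 8.55 in untransfected and 5.18 to 8.19 in transfected samples, with Col1a2 and Dcn under 1 CPM. The part of depth and of these markers in the results was not tested, except by a fit on libraries thinned at random to one depth. That fit is given where it changed a call of the 9 genes. For the genes of other lists it is only counted among the alternatives.

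Atxn2, the target of the ASO, was measured first. It stood at 54.1, 52.9 and 48.8 CPM in the ASO samples and at 123, 125 and 121 CPM in the untransfected samples. The 18 transfected samples lay between 98.7 and 125 CPM, so that no sample of another group reached down to the ASO samples. On the log2 scale, Atxn2 fell by 1.25 (SE 0.039, edgeR adjusted p = 1.65e-19) against untransfected cells and by 1.12 (SE 0.031, edgeR adjusted p = 5.77e-21) against the transfected groups.

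The first comparison asked which of the 9 genes differed between ASO and untransfected cells. Neat1 was 1.77-fold higher in ASO cells, Rnaseh2b was 1.19-fold and Sfpq 1.06-fold higher, and Nono was 8.22% lower. These 4 of 9 genes were called at an adjusted p under 0.05, 3 higher and 1 lower, while 42.7% of all genes tested were called in the same comparison (21.0% higher and 21.7% lower). The samples of these groups did not overlap for 6 of the 9 genes, 4 higher (Neat1, Rnaseh2b, Sfpq and Ssb) and 2 lower (Nono and Rnaseh2c) in ASO cells, beside 51.8% of all genes (25.8% higher and 26.1% lower). The share of the 9 genes called in either direction was close to that of all genes tested, and the account below is of single genes. Against the mean of the transfected groups, 4 of 9 genes were again called, with Neat1 higher and Nono, Pspc1 and Sfpq lower, beside 41.7% of all genes (20.1% higher and 21.6% lower). The 3 ASO samples did not overlap the 18 transfected samples for 3 of 9 genes, Neat1 above and Nono and Pspc1 below, beside 17.5% of all genes. Both comparisons use the same ASO samples, so their values are set side by side and are not independent. The median log2 difference over the 9 genes was 0.04 against untransfected cells and -0.06 against the transfected groups, beside -0.0021 and 0.0028 over all genes tested.

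**Figure D1:**
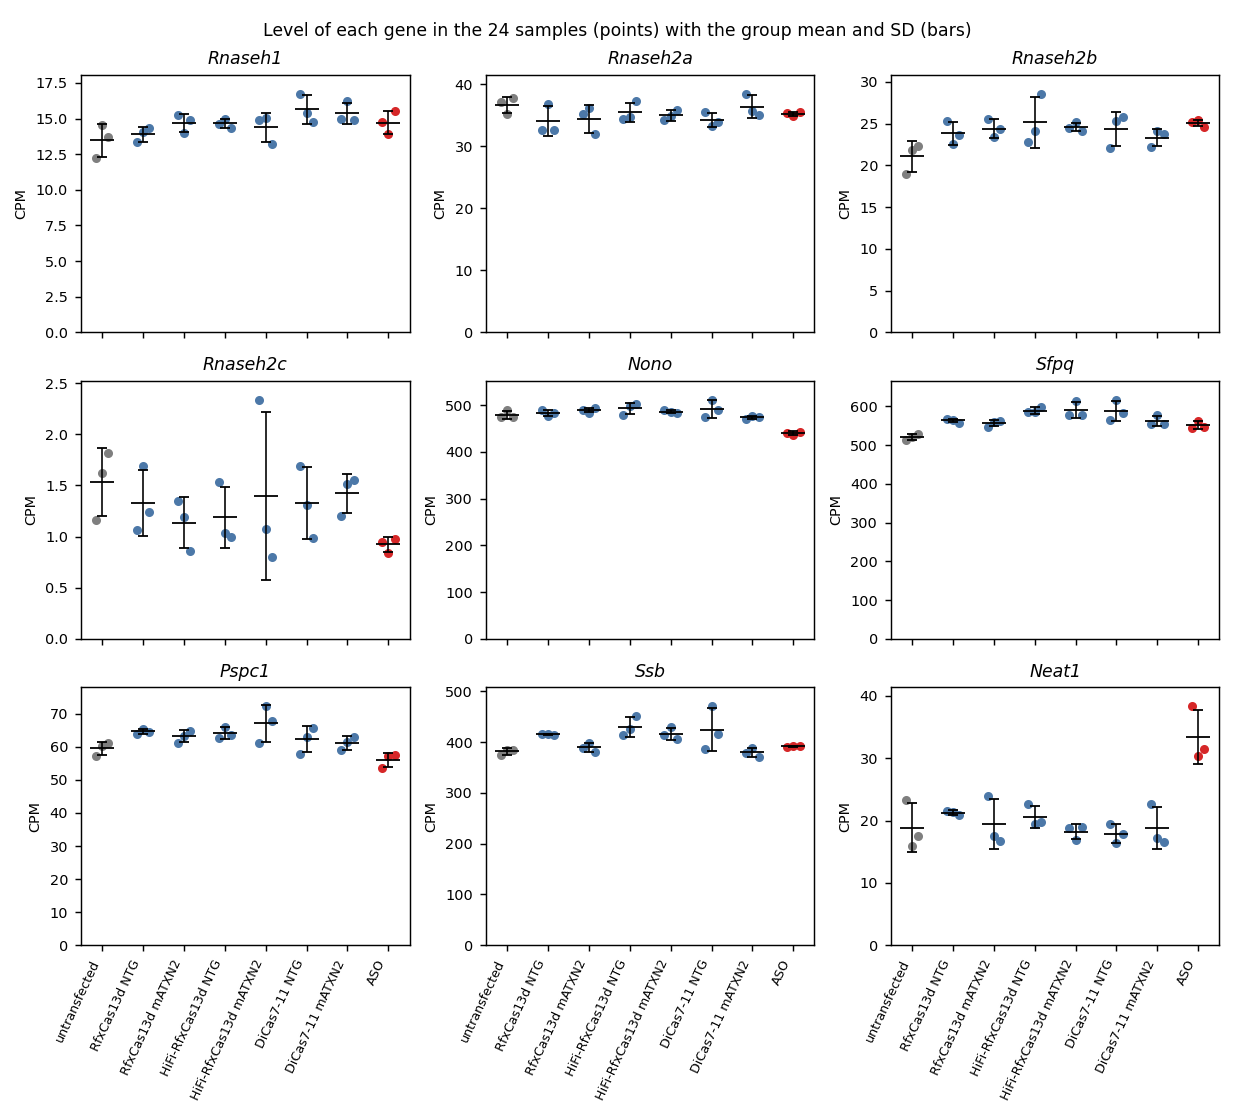
Level of each of the 9 genes in CPM (vertical axes, from 0) in the 3 samples of each of 8 groups (points), with the group mean and SD (black bars); untransfected samples are grey, transfected blue and ASO red. The ASO samples stand above all others for Neat1 (30.4 to 38.3 CPM) and below all others for Nono (435 to 443 CPM).

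Neat1 is the scaffold of paraspeckles. Its short isoform carries a poly(A) tail and its long isoform ends without one, so that libraries made from mRNA, as here, read the isoforms unequally; the table gives 1 value for the gene. Neat1 was measured at 38.3, 30.4 and 31.5 CPM in the ASO samples, from 882, 697 and 707 expected counts. The untransfected samples held 23.2, 15.9 and 17.6 CPM, and the 18 transfected samples ran from 16.4 to 24 CPM with a median of 19.2 CPM. All 3 ASO samples were above all 21 other samples. The log2 difference was 0.82 (SE 0.121, 95% confidence interval 0.57 to 1.07, edgeR adjusted p = 2.7e-06) against untransfected cells and 0.79 (SE 0.083, 0.62 to 0.96, edgeR adjusted p = 9.47e-09) against the transfected groups. A gene whose 3 ASO samples all lay above the 18 transfected samples was found in 8.05% of all genes tested. Neat1 ranked 553rd of 13901 genes from the top by its log2 difference from untransfected cells and 381st by that from the transfected groups.

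The other 7 groups lay closer together for Neat1. Their means ran from 21.3 ± 0.345 CPM (SD, n = 3) in the NTG group of RfxCas13d to 17.9 ± 1.54 CPM (SD, n = 3) in the NTG group of DiCas7-11, with untransfected cells between them at 18.9 ± 3.85 CPM (SD, n = 3), and in this order the ranges of every pair of neighbours overlapped. Some groups further apart did not overlap. The NTG samples of RfxCas13d, at 20.9 to 21.6 CPM, lay above those of DiCas7-11 with NTG and of HiFi-RfxCas13d with mATXN2. So did the NTG samples of HiFi-RfxCas13d, at 19.53 to 22.64 CPM, against at most 19.52 and 18.95 CPM in those 2 groups. Transfected and untransfected cells differed by 0.03 on the log2 scale (95% confidence interval -0.18 to 0.25, edgeR adjusted p = 0.856). With a longest annotated transcript of 20771 bases, Neat1 is far longer than the others of the 9, which reach 4983 bases. When a trend of each library on transcript length was removed, its log2 difference between ASO and untransfected cells was 0.58, with an edgeR adjusted p of 0.000327, the highest of 19 alternatives, whose adjusted p went down to 8.64e-27. In bulk samples such as these, fewer cells that express a gene and less of its RNA per cell cannot be told apart.

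**Figure D2:**
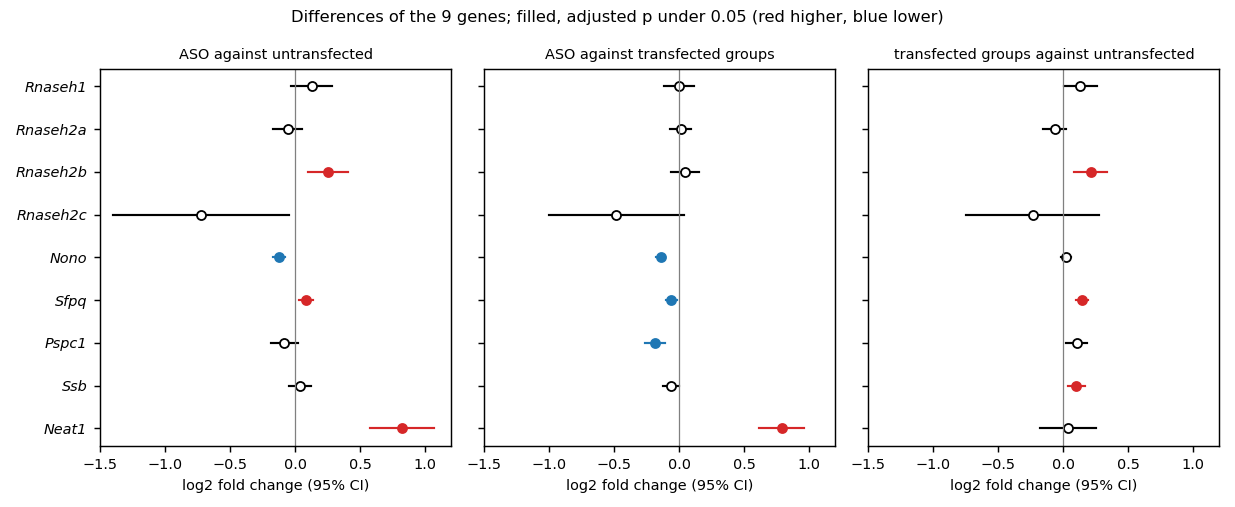
Log2 fold change (horizontal axes) of each gene with its 95% confidence interval from edgeR in 3 comparisons; filled points passed an adjusted p of 0.05, red higher and blue lower, and open points did not. Neat1 lies at 0.82 and 0.79 in the panels of the ASO and at 0.03 in that of transfection, while the interval of Rnaseh2c is the widest in each.

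Nono, a DBHS protein of paraspeckles and of transcription and splicing complexes, was lower in the ASO samples than in every other sample. Its level was 441, 435 and 443 CPM in the ASO samples and 474, 489 and 476 CPM in the untransfected samples. In the 18 transfected samples it ran from 470 to 511 CPM, with a median of 485 CPM. All 21 other samples were thus above the 3 ASO samples, although the distance was under 10%. Nono fell by 0.12 on the log2 scale (SE 0.0237, edgeR adjusted p = 0.000101) against untransfected cells and by 0.14 (SE 0.0181, edgeR adjusted p = 2.08e-07) against the transfected groups, where its level was 0.905 times that of those groups. Among all genes tested, 9.46% had all 3 ASO samples below the 18 transfected samples. The means of the other 7 groups lay between 493 ± 12.1 CPM (SD, n = 3) in HiFi-RfxCas13d with NTG and 474 ± 3.76 CPM (SD, n = 3) in DiCas7-11 with mATXN2, and neighbours in that order overlapped.

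Sfpq, the partner of Nono in the same family, differed most with transfection. It was at 513, 521 and 529 CPM in untransfected samples, at 545, 564 and 546 CPM in ASO samples and at 547 to 617 CPM, median 573 CPM, in transfected samples. Each of the 6 transfected groups lay wholly above the untransfected samples, and the ASO samples lay between, overlapping the lower transfected samples. The mean of the transfected groups was 10.4% higher than that of untransfected cells (log2 difference 0.14, SE 0.0213, edgeR adjusted p = 9.66e-06), and 4.52% of all genes tested had all 18 transfected samples above the 3 untransfected ones. ASO cells were 5.91% higher than untransfected cells (edgeR adjusted p = 0.0148) and 4.05% lower than the transfected groups (edgeR adjusted p = 0.0208). Both calls of the ASO depended on the setting. The first was not made without untransfected replicate 1 (adjusted p = 0.0603) or ASO replicate 2 (0.0768), within a range of 0.000178 to 0.0768 over 19 alternatives. The second was not made with library totals alone (0.405), at one depth (0.0508), with the length trend removed (0.0743) or without ASO replicate 1 (0.125) or 3 (0.112), within 0.00589 to 0.405 over 33.

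Pspc1, the third DBHS protein and named for paraspeckles, had its lowest mean in ASO cells. Its values were 53.5, 57.1 and 57.6 CPM in the ASO samples, 57.2, 60.2 and 61.1 CPM in the untransfected samples and 57.9 to 72.2 CPM, median 63.5 CPM, in the transfected samples. All 18 transfected samples were above the ASO samples, and 1 untransfected sample, at 57.2 CPM, fell among them. Pspc1 was 12.1% lower in ASO cells than in the transfected groups (log2 difference -0.19, SE 0.0372, edgeR adjusted p = 0.000173). Against untransfected cells the log2 difference was -0.08 (95% confidence interval -0.19 to 0.02, edgeR adjusted p = 0.185), which did not pass the test. Transfected cells stood 0.10 above untransfected cells on the log2 scale (95% confidence interval 0.02 to 0.18, edgeR adjusted p = 0.0622); this passed in 7 of 33 alternatives, whose adjusted p ran from 0.0137 to 0.305.

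RNase H1 showed no called difference. Rnaseh1 was at 14.7, 13.9 and 15.6 CPM in ASO samples, at 12.2, 14.5 and 13.7 CPM in untransfected samples and at 13.2 to 16.8 CPM, median 14.9 CPM, in transfected samples, and the 3 ranges overlapped. The log2 difference was 0.13 (95% confidence interval -0.03 to 0.28, edgeR adjusted p = 0.19) between ASO and untransfected cells and -0.0025 (-0.12 to 0.11, edgeR adjusted p = 0.981) between ASO cells and the transfected groups. These intervals hold a rise of Rnaseh1 by up to 0.28 and a fall by up to 0.03 on the log2 scale against untransfected cells. Rnaseh2a, the catalytic subunit of RNase H2, was at 35.3, 34.8 and 35.5 CPM in ASO samples, 37.1, 35.2 and 37.7 CPM in untransfected samples and 31.9 to 38.5 CPM in transfected samples. Its log2 difference was -0.06 (95% confidence interval -0.17 to 0.05, edgeR adjusted p = 0.432) against untransfected cells and 0.01 (-0.07 to 0.09, edgeR adjusted p = 0.857) against the transfected groups.

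The accessory subunits of RNase H2 gave 1 called and 1 uncalled difference against untransfected cells. Rnaseh2b was at 25.1, 25.4 and 24.6 CPM in ASO samples, above all 3 untransfected samples at 18.9, 21.9 and 22.4 CPM, and within the 22.1 to 28.6 CPM of the transfected samples. The rise against untransfected cells was 0.25 on the log2 scale (SE 0.075, edgeR adjusted p = 0.00693), and the transfected groups were also higher than untransfected cells, by 0.21 (SE 0.0613, edgeR adjusted p = 0.0113). Between ASO cells and the transfected groups the difference was 0.05 (95% confidence interval -0.06 to 0.15, edgeR adjusted p = 0.526). Both calls rested on untransfected replicate 1, the lowest of the 24 samples: without it the differences were 0.18 and 0.14, with adjusted p of 0.0755 and 0.178, the highest over 19 and 33 alternatives that began at 0.00154 and 0.00458.

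Rnaseh2c was the lowest of the 9 in counts, with 12 to 36 expected counts a sample, so that counting error was large. It was at 0.949, 0.844 and 0.976 CPM in ASO samples, at 1.16, 1.62 and 1.82 CPM in untransfected samples and at 0.796 to 2.33 CPM, median 1.22 CPM, in transfected samples. The ASO samples lay below all untransfected samples and below all but 2 of the 18 transfected ones. The difference from untransfected cells, -0.72 on the log2 scale, had a 95% confidence interval of -1.40 to -0.04 and did not pass the test (SE 0.331, edgeR adjusted p = 0.0806). It passed in a fit of only those 6 samples (adjusted p = 0.0485) and at one depth (0.0403), within 0.0403 to 0.226 over 19 alternatives. The fit at one depth rests on a single random thinning of these low counts, in which the difference was -1.03. Against the transfected groups the difference was -0.48 (-1.003 to 0.036, edgeR adjusted p = 0.13).

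Ssb encodes La, which binds the 3′ ends of newly made small RNAs. It was at 390, 392 and 392 CPM in ASO samples and at 374, 385 and 385 CPM in untransfected samples, and ran from 371 to 470 CPM, median 414 CPM, over the transfected samples. The ASO samples were above all untransfected samples and inside the transfected range. Their log2 difference from untransfected cells was 0.04 (95% confidence interval -0.05 to 0.12, edgeR adjusted p = 0.5), and that from the transfected groups was -0.06 (-0.13 to -0.0004, edgeR adjusted p = 0.101). The latter passed in 3 of 33 alternatives, with every gene of a nonzero count (adjusted p = 0.0173), without the DiCas7-11 NTG samples (0.0379) and without replicate 1 of these (0.017), within 0.017 to 0.525. The transfected groups were 7.2% higher than untransfected cells (log2 difference 0.10, SE 0.032, edgeR adjusted p = 0.0195), a call not made without untransfected replicate 1 (0.112) or 2 (0.052), within 3.6e-05 to 0.112 over 33 alternatives.

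Between transfected and untransfected cells, 3 of 9 genes were called, all higher: Sfpq, Rnaseh2b and Ssb. Of all genes tested, 27.4% were called in that comparison, 13.3% higher and 14.1% lower. The 18 transfected samples did not overlap the 3 untransfected ones for 1 of 9 genes, Sfpq, beside 9.26% of all genes, 4.52% above and 4.74% below. The median over the 9 genes was 0.10 on the log2 scale, against -0.0050 over all genes. This comparison shares its untransfected samples with that of the ASO, where Sfpq and Rnaseh2b were also called higher, so the pair of results is not independent. Without untransfected replicate 1, 1 of 9 genes was called in it, namely Sfpq, and 2 of 9 in that of ASO and untransfected cells, namely Neat1 and Nono.

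Whether the crRNA against ataxin-2 moved these genes was asked over the 3 effectors together. The column names of the table call the control arm EV where the labels say NTG, and the targeting arm G12 where the sample titles say G10. The study describes the RNA-seq arms as given an ataxin-2-targeting crRNA, with the number of G10, or a non-targeted crRNA. What EV stands for is not stated, and why the column names differ from that description is not settled here. The comparison is given under the labels' names. Ssb was lower with the mATXN2 crRNA in each effector's means. The levels with mATXN2 and NTG were 390 ± 8.89 and 415 ± 0.889 CPM for RfxCas13d, 417 ± 12.1 and 430 ± 19.6 CPM for HiFi-RfxCas13d and 380 ± 8.99 and 424 ± 42.1 CPM for DiCas7-11 (SD, n = 3 each). Samples overlapped between the arms for HiFi-RfxCas13d and DiCas7-11 and not for RfxCas13d. Over the effectors Ssb fell by 0.10 on the log2 scale, or 6.78% (SE 0.0237, edgeR adjusted p = 0.00915), and it was the only 1 of 9 genes called, against 5.19% of all genes, 2.95% higher and 2.24% lower. The other 8 had edgeR adjusted p of 0.374 or more. Atxn2 fell by 11.6% in the same comparison (log2 difference -0.18, SE 0.0214, edgeR adjusted p = 2.3e-06). Its means with mATXN2 and NTG were 114 and 122 CPM for RfxCas13d, 101 and 119 CPM for HiFi-RfxCas13d and 103 and 118 CPM for DiCas7-11. A test of whether the crRNA effect differed between effectors called 0 of 9 genes by edgeR, with 0 at an unadjusted p under 0.05 and a lowest adjusted p of 0.73, and DESeq2 and limma-trend also called 0. Of all genes, 0.00% were called by edgeR in this test, with 1021 at an unadjusted p under 0.05, and DESeq2 and limma-trend called 2 and 0.

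**Figure D3:**
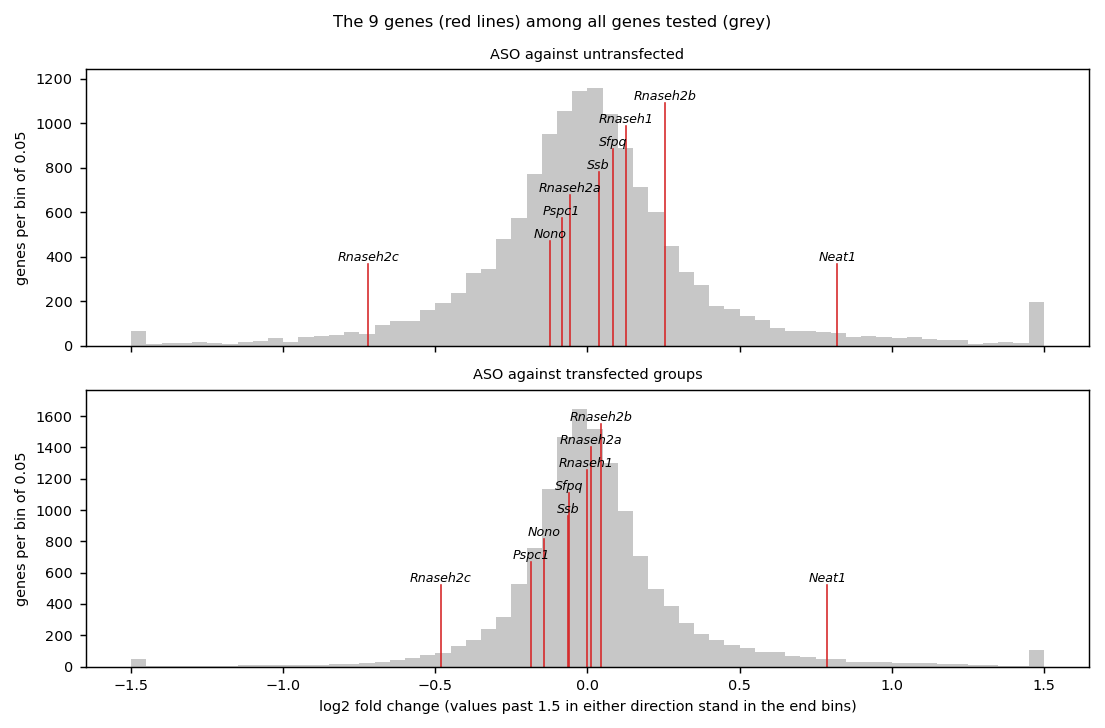
Distribution of log2 fold changes of all 13901 genes tested (grey, genes per bin of 0.05, with values past 1.5 in the end bins) for ASO against untransfected cells (upper panel) and against the transfected groups (lower panel), with the 9 genes as red lines whose heights carry no value. Neat1 and Rnaseh2c lie away from the centre, at 0.82 and -0.72 above and at 0.79 and -0.48 below, and the other 7 between -0.12 and 0.25 above and between -0.19 and 0.05 below.

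The levels of other genes over the 24 samples were compared with those of the 3 members called between ASO and untransfected cells that had the largest changes there, as Pearson's r of log2 CPM over 10913 genes with enough counts. Neat1 was most alike to Flii (r = 0.873), Kif5a (0.872) and Renbp (0.855). Rnaseh2b was most alike to Jade3 (0.813), Nop58 (0.805) and Prkar2a (0.8), and Nono to Calr (0.921), Hnrnpf (0.918) and Hsp90b1 (0.917). Kif5a, a motor protein of neurons, was 0.54 higher in ASO than in untransfected cells on the log2 scale (edgeR adjusted p = 3.02e-10), and Hsp90b1, a chaperone of the endoplasmic reticulum, was 0.34 lower (edgeR adjusted p = 2.14e-09). These r are descriptions, since the 24 samples share groups and libraries.

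Related genes were taken from 7 lists, which were drawn up with earlier results of these data known. Apart from genes named by rule for the size of their change, those named below because a list's count was 5 or fewer were named after their values were seen. Of 12 further paraspeckle proteins, 2 were called lower in ASO than in untransfected cells and the other 10 were not called. Of all genes, 42.7% were called. Hnrnpk fell by 0.12 and Hnrnpa1 by 0.11 on the log2 scale, with a median over the list of -0.0068 against -0.0021 over all genes. Both were called lower in all 19 alternatives. Against the transfected groups 1 was called higher, Hnrnph3 at 0.10, and 5 lower, among them Hnrnpk, Ewsr1, Cpsf6 and Hnrnpa1, at -0.13 to -0.05, with a median of -0.03, beside 20.1% and 21.6% of all genes. The calls of Hnrnpk and Ewsr1 held in all 33 alternatives, and those of Hnrnph3, Cpsf6 and Hnrnpa1 were lost in 6, 5 and 13 of them.

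Other proteins known to bind phosphorothioate oligonucleotides were mostly lower. Of 14, 9 were called lower and 2 higher in ASO than in untransfected cells, beside 21.7% and 21.0% of all genes, with a median of -0.13. In the comparison with the transfected groups, 10 were called lower and 1 higher, beside 21.6% and 20.1% of all genes, with a median of -0.12. The chaperones Hsp90ab1 and Hsp90aa1 fell by 0.32 (edgeR adjusted p = 1.42e-12) and by 0.28 (edgeR adjusted p = 5.2e-07), and Hspa8, the Hsc70 chaperone, fell by 0.23 (edgeR adjusted p = 1.66e-09) on the log2 scale against untransfected cells. Anxa2, a membrane-binding annexin, fell by 0.68 (SE 0.148, edgeR adjusted p = 0.000445), from 17.7 ± 4.45 CPM in untransfected to 11.1 ± 1.41 CPM in ASO cells (SD, n = 3 each), and by 0.43 (edgeR adjusted p = 0.00275) against the transfected groups. Without untransfected replicate 1 the first of these was -0.45 (adjusted p = 0.0181, the highest of 19 alternatives, which began at 8.68e-12). Xrcc6, the Ku70 subunit, fell by 0.14 (edgeR adjusted p = 0.00145) against untransfected cells; against the transfected groups its difference was -0.01 (edgeR adjusted p = 0.769), and those groups were 0.13 lower than untransfected cells (edgeR adjusted p = 0.000536). The 2 called higher were Xrcc5, the Ku80 subunit, at 0.16, and nucleolin (Ncl) at 0.10. The call of Ncl was lost in 5 of 19 alternatives, with adjusted p up to 0.309, and that of Xrcc5 without untransfected replicate 2 (0.0558). Hsp90aa1 also fell by 0.23 (edgeR adjusted p = 1.72e-07) against the transfected groups.

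**Figure D4:**
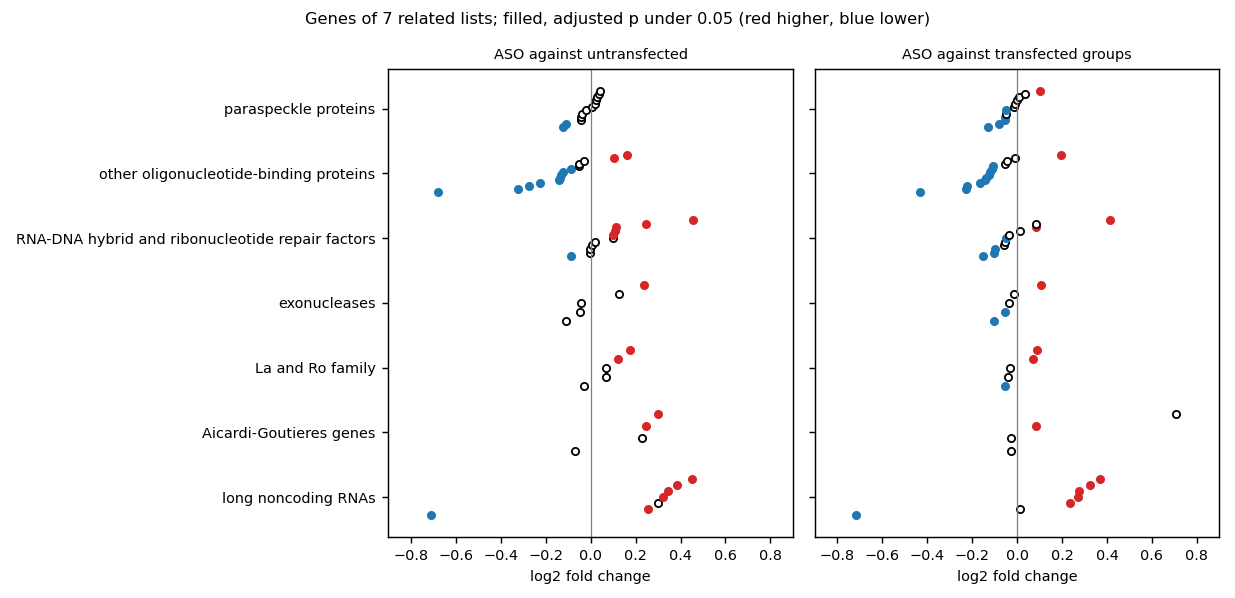
Log2 fold change (horizontal axes) of the tested genes of 7 lists (rows) in ASO cells against untransfected cells (left) and against the transfected groups (right); filled points passed an edgeR adjusted p of 0.05, red higher and blue lower, and Ifih1, near 0 counts in untransfected and ASO cells, is not drawn. In the list of other oligonucleotide-binding proteins 9 and 10 of 14 points are blue, and 5 of 7 long noncoding RNAs are red in each panel.

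Factors that act on RNA-DNA hybrids, or with RNase H2 on ribonucleotides in DNA, were called higher for 5 of 11 and lower for 1 against untransfected cells, beside 21.0% and 21.7% of all genes, with a median of 0.10. Those called higher included Samhd1 at 0.24, Top1 at 0.11, Dhx9 at 0.11 and Ddx21 at 0.10, and the 1 lower was Lig1 at -0.09. The call of Lig1 was lost in 9 of 19 alternatives and that of Top1 in 2 of 19. Against the transfected groups 2 were called higher, Samhd1 among them, beside 20.1% of all genes. Another 4, Lig1, Pcna, Fen1 and Ddx21, were called lower, beside 21.6% of all genes, and the median was -0.05. The calls of Samhd1, Fen1 and Ddx21 were lost in 3, 3 and 23 of 33 alternatives. Between transfected and untransfected cells 7 of the 11 were called higher, beside 13.3% of all genes, and the other 4 were not called.

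Smaller lists held 5 tested genes each. Of all genes, 21.0% were called higher and 21.7% lower against untransfected cells, and 20.1% and 21.6% against the transfected groups. Of 5 exonuclease and exosome genes tested (6 symbols listed, 5 in the table), 1 was called higher against untransfected cells, the exosome nuclease Exosc10 at 0.24, and the other 4 were not called, with a median of -0.04. Against the transfected groups Exosc10 was higher at 0.11, and Xrn1 and Xrn2 were lower, at -0.10 and -0.05, with a median of -0.04. The calls of Xrn1 and Xrn2 were lost in 4 and 6 of 33 alternatives. Of 5 tested La and Ro genes (7 symbols listed, 6 in the table), Larp1 at 0.17 and Larp4 at 0.12 were called higher against untransfected cells and the other 3 were not called, with a median of 0.07. Against the transfected groups 2 were higher, Larp1 at 0.09 and Ro60 at 0.07, and 1 lower, Larp4b at -0.06, with a median of -0.03; the calls of Ro60 and Larp4b were lost in 7 and 6 of 33 alternatives.

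Genes of Aicardi-Goutières syndrome, in which RNase H2 subunits are also mutated, included 2 of 5 called higher against untransfected cells, beside 21.0% of all genes. Adar, which edits double-stranded RNA, rose by 0.30 (SE 0.0415, edgeR adjusted p = 9.33e-07), from 68.1 ± 2.39 to 84.0 ± 3.43 CPM (SD, n = 3 each), and stood at 85.8 ± 4.43 CPM (SD, n = 18) in transfected samples. The other was Samhd1 at 0.24, which is on 2 lists, and the median was 0.24. Relative to the transfected groups, Samhd1 was called higher, at 0.08. The 5 genes and the median of 0.24 include Ifih1, described next. Ifih1, the sensor of double-stranded RNA also called MDA5, had 0 counts in all 3 untransfected samples, 1 count over the 3 ASO samples and 222 counts over the 18 transfected samples, in none of which it was at 0. It passed the filter on low counts through the transfected samples alone, so its difference from them is given as a description, with no test. Scaled to library totals that was 49.8 times as much in transfected as in ASO samples, with an exact binomial 95% interval of 8.85 to 1980 that covers counting error only.

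Long noncoding RNAs other than Neat1 rose in 5 of 7 tested of 8 listed, and 1 fell, in either ASO comparison, beside 21.0% and 20.1% of all genes called higher and 21.7% and 21.6% lower, with medians of 0.32 against untransfected cells and 0.27 against the transfected groups. Malat1, the neighbour of Neat1 and a nuclear speckle RNA, was at 439 ± 12.8 CPM in ASO and 321 ± 55.4 CPM in untransfected cells (SD, n = 3 each), a log2 difference of 0.45 (SE 0.0773, edgeR adjusted p = 2.26e-05), and of 0.37 (edgeR adjusted p = 4.19e-06) against the transfected groups. Tug1 was 0.39 (edgeR adjusted p = 1.35e-07) and Snhg1, host of small nucleolar RNAs, 0.32 (edgeR adjusted p = 2.02e-07) higher than in untransfected cells. Kcnq1ot1, an antisense RNA of an imprinted region, was 0.35 higher (edgeR adjusted p = 0.0362), a call lost in 7 of 19 alternatives, in which adjusted p went up to 0.204; against the transfected groups its difference was 0.01 (edgeR adjusted p = 0.933). Gas5, also a host of small nucleolar RNAs, was 0.28 higher than in the transfected groups (edgeR adjusted p = 3.58e-10). Firre was 0.23 higher than in those groups (edgeR adjusted p = 0.0451), a call lost in 20 of 33 alternatives, in which adjusted p went up to 0.236. Meg3, an imprinted RNA, fell by 0.71 (edgeR adjusted p = 0.00208), from 5.89 ± 0.868 to 3.60 ± 0.663 CPM (SD, n = 3 each), and by 0.72 (edgeR adjusted p = 0.000106) against the transfected groups. In the main fit the log2 difference of Neat1 was the largest among these long noncoding RNAs in both comparisons. Over the 33 alternatives against the transfected groups it went down to 0.556. That of Meg3 lay between -0.8724 and -0.5826 there, so in size this order did not always hold.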

How the data were processed

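RNA was taken from 24 Neuro2A samples in 8 groups of 3, and stranded mRNA libraries were read from 1 end. The values deposited by the authors are expected counts per gene, not normalized for depth: per the study's methods Salmon (version 1.5.2 in the submitters' processing notes, which name GRCm39) mapped the reads and corrected for GC content and sequence bias, and tximport turned the transcripts into 39253 genes (lengthScaledTPM), which keeps multi-mapped reads. The authors marked 12874 genes as kept; this mark was not used as a filter. Replicates were not pooled.

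Expected counts were rounded and fitted with edgeR 4.0.16 (quasi-likelihood test, TMM) in R 4.3.3, on the 13901 genes that reached 0.5 CPM in 3 or more samples, in 1 model of all 24 samples. Benjamini-Hochberg adjustment was made over all genes within a comparison, at 0.05. CPM use TMM library sizes. The study's own test, limma-trend (limma 3.58.1), DESeq2 1.42.0 and other settings were alternatives. The fits were also run on simulated counts, and no outcome of that run is used here.

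Groups came from the labels. Same-numbered replicates deviated together little, with correlations of -0.086 to 0.085 over 84 pairs and a median of 0.004, against -0.003 for different numbers. Of 24 libraries, 13 correlated best with their own number. The numbers were not used as a block in the main fit, and fits with the block are among the alternatives. The members, the 7 related lists and the marker lists were chosen with earlier results of these data known. Named genes are the 9 members, Atxn2, the 6 largest called rises and falls of the lists against untransfected cells and the 4 against the transfected groups, and the 3 genes most alike to each of 3 members; the exceptions are given in the text, and a few genes that the rule names are not reported here. RefSeq promoters were from GRCm38.p6, so no coordinates are given for the counts. Means carry SD, intervals cover 95%, and totals of 12665725 to 22504999 set the counting error.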

Additional observations from a re-analysis of the deposited data

How the results depend on the processing

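Over 36 differences of the 9 genes in 4 comparisons, 962 of 1035 alternative values kept direction and side of the threshold and 73 did not. Neat1 and Nono kept their calls in all 19 alternatives against untransfected cells and, with Pspc1, in all 33 against the transfected groups, as did Sfpq in all 33 for transfection and Ssb in all 30 for the crRNA. Of 65 called differences of listed genes, 47 were past the threshold in the same direction in every alternative. Both counts include Ifih1 against the transfected groups, a difference given above with no test. Leaving out 1 library gave 2 to 4 members called for ASO against untransfected cells, with 2 without untransfected replicate 1, 3 to 5 for ASO against the transfected groups (5 without DiCas7-11 NTG replicate 1, 3 without ASO replicate 1 or 3), and 1 to 4 for transfection, with 1 without untransfected replicate 1. For the crRNA, 722 genes were called; leaving out 1 library gave 548 to 1085, the latter without DiCas7-11 NTG replicate 1, and leaving out all 3 samples of that group, an alternative chosen after seeing the data, gave 456, from fewer samples. The replicate block together with the length correction called 2 members for the crRNA, with Neat1 at -0.21 (edgeR adjusted p = 0.00465); the replicate block alone moved 1 count of members called, from 3 to 4 for transfection (Pspc1, edgeR adjusted p = 0.0176), and 13 of 24 libraries correlated best with their own number. The cause of the moved values was not tested.

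Of the 73, 49 changed sign, all of uncalled differences near 0. Rnaseh1 in ASO against transfected groups turned to 0.0362 with library totals, 0.0004 with filterByExpr, 0.0189 at one depth, 0.0191 with the length correction, 0.0193 with that and the replicate block, 0.014 without the DiCas7-11 NTG samples and -0.0432 to 0.0376 with 1 library left out; Rnaseh2a turned to -0.0183 at one depth. Neat1 in transfected against untransfected cells was -0.0901 to 0.2186 with 1 library left out. For the crRNA, Rnaseh1 turned to -0.0014 with the length correction, -0.0016 with the block too and -0.0073 to 0.0265 with 1 library left out; Rnaseh2a to -0.0024 and Rnaseh2c to -0.0108 without the DiCas7-11 NTG samples; Rnaseh2c to -0.0006 with the block and length correction and -0.1519 to 0.1281 with 1 library left out; Rnaseh2b was -0.0451 to 0.0103 with 1 library left out; and Pspc1 turned to -0.0006 with median-ratio size factors, -0.0004 with DESeq2, -0.0269 at one depth and -0.019 to 0.0188 with 1 library left out. Depth limits Rnaseh2c most, at 12 to 36 expected counts a sample.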
